A study of Mus musculus with 3 samples.

Results

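Collagens are the main structural proteins of the extracellular matrix, and each is built from chains that wind into a helix. Fibrillar collagens (types I, III and V among others) form the cross-striated fibres of the interstitium, type IV collagen forms the sheet of the basement membranes under tubules, capillaries and glomeruli, and type VI forms beaded microfilaments that lie between fibres and basement membranes. In the kidney, interstitial fibroblasts and perivascular cells are the main source of collagens I, III and VI, and accumulation of these chains is the hallmark of renal fibrosis.

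The genes described here are those whose single symbol in the array's annotation has the form of a collagen chain (Col, a type number, the letter a and a chain number). There were 42 such genes among 18193 named genes: 11 fibrillar chains, 6 chains of type IV, 5 chains of type VI and 20 others. Each gene was read from its probe set with the highest mean signal. Of the 42, 21 passed the filter on low signals, a mean at or above the median of all probe sets, which corresponds to a signal near 101. *Col5a3*, with a mean signal of 128, was the nearest gene inside that limit, and *Col7a1*, with 100.2, the nearest outside.

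The 3 arrays held total RNA from kidneys of male C57BL/6J mice with a labelled age of 16 weeks: 1 from uninephrectomy alone and 2 from the cardio-renal syndrome model. All had lost 1 kidney, and the remaining kidney was taken 6 weeks later. In the cardio-renal model the abdominal aorta had in addition been banded below the renal arteries, 2 weeks before the nephrectomy. The series' design text also mentions sham operations, while the labels do not say whether the uninephrectomy-alone mouse had one, nor whether an array holds RNA of a single animal. The comparison asks what banding adds to the loss of a kidney, and no unoperated kidney was analysed here. All 5 proximal tubule markers checked had signals between 7583 and 19804. Cardio-renal array 1 stood apart from the others: over 11144 genes its correlation was r = 0.982 with uninephrectomy alone and r = 0.982 with array 2, whereas uninephrectomy alone and array 2 gave r = 0.990. These are correlations across genes, which are not replicates. Both cardio-renal arrays are therefore given separately throughout. With a single uninephrectomy array, every difference from it carries that array's own deviation, so a sign shared by both cardio-renal samples is not independent evidence.

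Lower collagen signals were more frequent in cardio-renal array 2 than in array 1. In array 2 the chains of interstitial collagens I, III, VI and XIV all had lower signals than with uninephrectomy alone, with log2 differences from -0.91 to -0.39. In array 1 the same 7 genes ranged from -0.43 to 0.29. This group was put together after its values were seen and is a description. The type IV chains stayed within -0.21 to 0.045 in both arrays at their brightest probe sets. *Col27a1*, a fibrillar chain known from cartilage, and *Col8a1*, a short chain of vessel walls, had higher signals in both arrays at those probe sets. Another *Col8a1* probe set past the filter stood at -0.34 in array 1. The plot of signals by array shows all 21 genes.

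**Figure D1:**
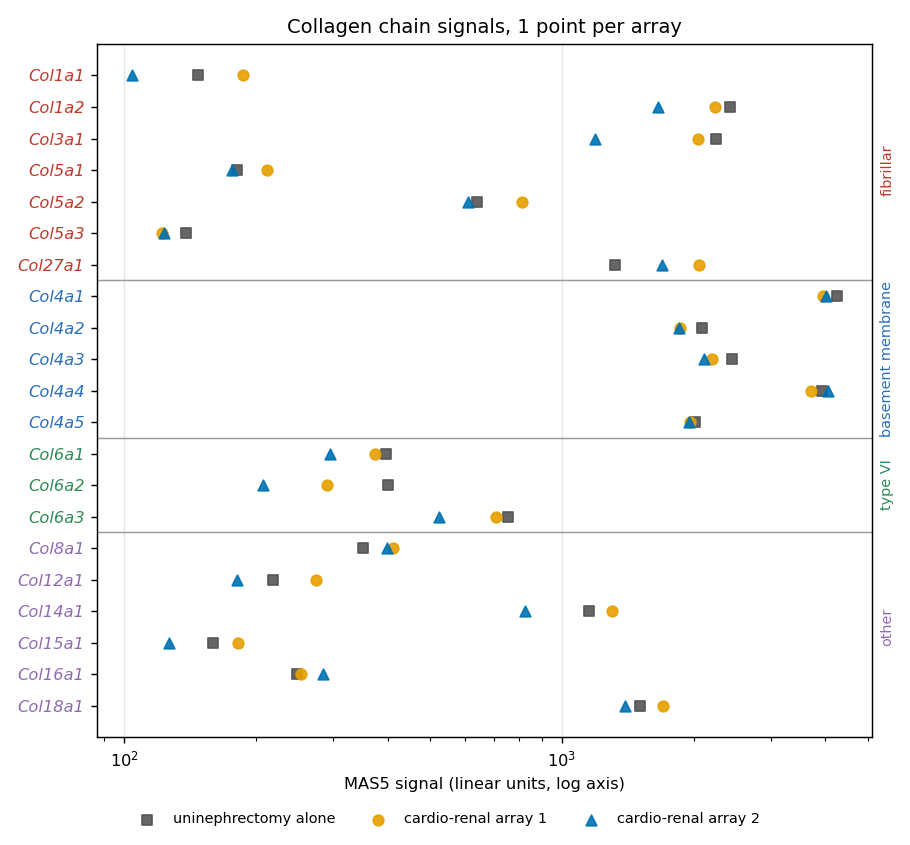
MAS5 signal of each collagen gene past the filter, on a log axis, with 1 point for each of the 3 arrays and genes grouped by class. Signals of different genes come from different probes and are not comparable with each other. For *Col3a1* the cardio-renal array 2 point (1189) lies well to the left of the uninephrectomy point (2251), whereas the *Col4a1* points lie between 3955 and 4257.

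No collagen gene passed limma's test. In that fit over all 11144 genes, 0 genes had an adjusted p (Benjamini-Hochberg) under 0.05 in either direction (0% of genes tested, whether the mean-variance trend was ordinary, robust or left out), and 280 had an unadjusted p under 0.05, 2.51% of those tested. The collagen genes among the 280 were *Col27a1* and *Col6a2*. The adjusted p was 0.9998 for all 21 by limma. The fit has 1 residual degree of freedom, and the uninephrectomy group, with its lone sample, is taken to vary as much as the cardio-renal pair.

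By direction alone, 10 of the 21 collagen genes lay below uninephrectomy in both cardio-renal arrays, 47.6%, against 29.7% of all genes tested. In both arrays 3 lay above it (*Col27a1*, *Col8a1* and *Col16a1*), 14.3%, against 30.7% of all genes. None was at least 1.5-fold lower or higher in both, where 0.35% and 0.511% of all genes were. Array 2 held most of the lower signals. There 17 of 21 collagen genes lay below uninephrectomy, 81.0%, against 50.7% of all genes, while in array 1 the number was 11, against 48.4%. *Col3a1* and *Col6a2* were at least 1.5-fold lower in array 2, as were 1.53% of all genes. In array 1 *Col27a1* was at least 1.5-fold higher, as were 2.79% of all genes. The count of genes lower in both arrays was 17 with array 2 alone and 11 with array 1 alone, so it depends on which cardio-renal sample is read. Set directly against array 1, array 2 had the lower signal for 17 of the 21 genes, where 53.1% of all genes did, and it was at least 1.5-fold lower for 3 of them, *Col3a1*, *Col1a1* and *Col14a1*, where 3.28% of all genes were.

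**Figure D2:**
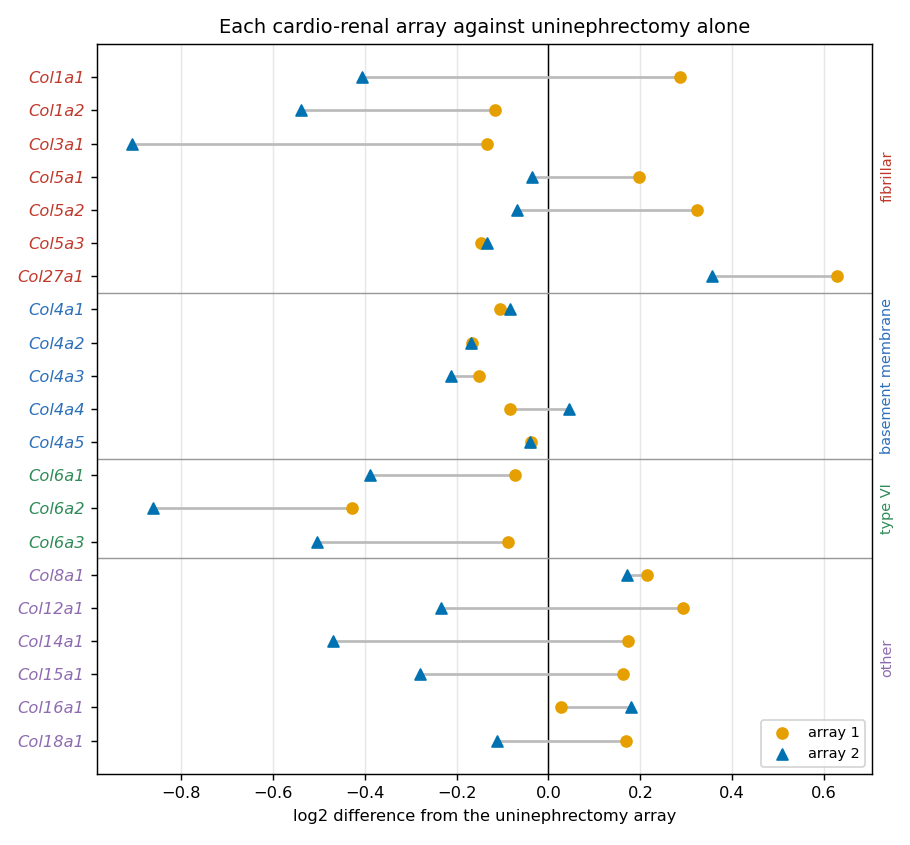
Log2 difference of cardio-renal array 1 (circles) and array 2 (triangles) from the uninephrectomy array for the 21 collagen genes past the filter, with genes coloured and separated by class and a line joining the arrays. The pairs for type IV chains lie close together near 0, and those for *Col3a1*, *Col1a1* and *Col14a1* lie farthest apart.

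*Col1a1* and *Col1a2* encode the chains of type I collagen, the commonest fibre-forming collagen. *Col1a2* had a signal of 2426 with uninephrectomy alone, of 2235 in cardio-renal array 1 and of 1661 in array 2. The value in array 2 was 68.5% of the uninephrectomy value, whereas array 1 stood at 92.1%. The mean log2 difference was -0.33 ± 0.30 (SD, n = 2), with a standard error of 0.20 in limma's fit. *Col1a1* had signals of 148, 187 and 105 in the same order. It was thus above uninephrectomy in array 1 (0.29) and below it in array 2 (-0.41). A dimmer *Col1a1* probe set, below the filter, had signals of 93.5, 89.9 and 40.4, with log2 differences of -0.043 and -0.82. The dimmer *Col1a2* probe set past the filter gave log2 differences of -0.059 and -0.59, near those of the brighter one. In array 2 *Col1a2* was the 222nd lowest of the 11144 genes by its difference from uninephrectomy.

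*Col3a1* encodes type III collagen, which accompanies type I in reticular fibres. Its signals were 2251 with uninephrectomy alone and 2050.3 and 1189 in cardio-renal arrays 1 and 2. Array 2 reached 52.8% of the uninephrectomy value, and the gene ranked 34th from the lowest in that array. The mean log2 difference was -0.52 ± 0.55 (SD, n = 2), so the spread between the cardio-renal samples was as large as the difference. A second, dimmer *Col3a1* probe set had signals of 151, 156 and 139, a log2 difference of only -0.097 in array 2. The size of the *Col3a1* difference therefore depends on the probe set, while its sign in array 2 does not.

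The sequences upstream of these genes are shown because *Col1a2*, *Col3a1* and *Col6a3* were low together in array 2 and *Col27a1* was high in both arrays. They are the 250 bases before the RefSeq start on GRCm38.p6, 5′ to 3′ on the gene's strand, with matches in capitals to CCAAT (the box bound by NF-Y), TATAAA (the TATA box) and GGGCGG (the GC box bound by SP proteins), each searched on both strands. The windows are *Col1a2* chr6:4505368-4505617 (+), *Col3a1* chr1:45311288-45311537 (+), *Col6a3* chr1:90843972-90844221 (-) and *Col27a1* chr4:63215162-63215411 (+).
Col1a2: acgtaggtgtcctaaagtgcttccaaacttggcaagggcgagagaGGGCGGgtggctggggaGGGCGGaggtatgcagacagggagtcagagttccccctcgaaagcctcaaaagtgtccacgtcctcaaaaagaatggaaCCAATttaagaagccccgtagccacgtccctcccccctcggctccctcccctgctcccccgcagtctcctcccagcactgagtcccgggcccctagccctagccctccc
Col3a1: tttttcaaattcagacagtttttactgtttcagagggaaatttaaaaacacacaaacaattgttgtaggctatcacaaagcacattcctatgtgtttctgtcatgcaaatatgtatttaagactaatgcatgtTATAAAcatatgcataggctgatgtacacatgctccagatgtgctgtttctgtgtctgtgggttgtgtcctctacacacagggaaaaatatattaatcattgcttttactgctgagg
Col6a3: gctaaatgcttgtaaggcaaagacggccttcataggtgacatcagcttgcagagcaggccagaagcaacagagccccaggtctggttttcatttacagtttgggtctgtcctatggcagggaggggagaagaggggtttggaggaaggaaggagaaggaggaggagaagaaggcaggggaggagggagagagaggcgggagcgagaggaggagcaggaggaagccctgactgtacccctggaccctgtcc
Col27a1: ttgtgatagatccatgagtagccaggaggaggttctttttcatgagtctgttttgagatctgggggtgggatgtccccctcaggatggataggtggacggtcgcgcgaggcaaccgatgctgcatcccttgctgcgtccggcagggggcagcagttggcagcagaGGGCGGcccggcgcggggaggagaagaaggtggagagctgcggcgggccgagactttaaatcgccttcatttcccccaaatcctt

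The *Col1a2* window held 2 GC boxes and 1 CCAAT box, which began 109 bases before the start. The *Col3a1* window held 1 TATAAA match, which began 117 bases before the start. The *Col27a1* window held 1 GC box and the *Col6a3* window no match. *Col6a1* and *Col6a2* were also low in array 2, and their windows are not printed. The *Col6a1* window held no match, and the *Col6a2* windows held 3 and 1 matches to the GC box. These motifs are common: of 32851 windows of the same length, 33.8% held CCAAT, 12.4% TATAAA and 32.7% GGGCGG on either strand. Among the 18 windows of the 16 collagen genes past the filter that the table held, 7 had CCAAT, 1 had TATAAA and 11 had GGGCGG. A match describes the letters only and does not show that a factor binds.

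Type V collagen is a minor component that regulates the diameter of type I fibres. *Col5a1* had signals of 181, 212 and 176 for uninephrectomy, array 1 and array 2, and *Col5a2* of 642, 809 and 610.1. Both were above uninephrectomy in array 1, by 0.20 and 0.32 on the log2 scale, and close to it in array 2, at -0.035 and -0.069. With all probe sets averaged, the array 2 value of *Col5a1* turned to 0.087. *Col5a3* had signals of 138, 122 and 124 and was slightly lower in both. *Col5a2* is the neighbour of *Col3a1* on chromosome 1, and it did not share the low array 2 signal of that gene.

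*Col27a1* differed from the other fibrillar chains. Its signals were 1320.2 with uninephrectomy alone and 2056 and 1697 in cardio-renal arrays 1 and 2, so that both cardio-renal values exceeded the lone control. The log2 differences were 0.63 and 0.36, with a mean of 0.49 ± 0.19 (SD, n = 2), a standard error of 0.18 and an unadjusted p of 0.0262 (adjusted p 0.9998) in limma's fit. The second *Col27a1* probe set had signals of 497, 649.7 and 633, with differences of 0.37 and 0.33. By mean difference it ranked 229th from the highest of the 11144 genes. As a class, the 7 fibrillar genes past the filter had median log2 differences of 0.20 in array 1 and -0.13 in array 2, against 0.0085 and -0.0028 for all genes tested.

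Of the 4 classes, type IV had the smallest gap between the medians of the cardio-renal arrays. *Col4a1* and *Col4a2* form the network found in nearly all basement membranes. *Col4a1* had signals of 4257, 3955 and 4018 and *Col4a2* of 2088, 1858 and 1853. Both cardio-renal values lay a little below the control for either gene, at -0.11 and -0.083 for *Col4a1* and at -0.17 in both arrays for *Col4a2*. These genes start head to head: their RefSeq starts on chromosome 8 are 21 bases apart, on opposite strands. The second *Col4a1* probe set disagreed with the first in array 2, with signals of 1494, 1424 and 978 and a log2 difference there of -0.60.

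*Col4a3*, *Col4a4* and *Col4a5* encode the chains of the mature glomerular basement membrane, made by podocytes and altered in Alport syndrome. *Col4a3* had signals of 2454, 2207 and 2114. *Col4a4*, its neighbour on chromosome 1, had signals of 3929, 3708 and 4055, below the control in array 1 and above it in array 2. Other probe sets of both genes differed in sign: those of *Col4a4* past the filter stood at 0.11 and 0.17 in array 1, its mean over probe sets there was 0.066, and the second *Col4a3* set stood at 0.12 in array 2. *Col4a5* had 2014, 1960.4 and 1958, which put the cardio-renal arrays at 97.3% and 97.2% of the control. Podocyte markers beside them had medians over 4 genes of 0.10 in array 1 and -0.034 in array 2. *Col4a6*, the neighbour of *Col4a5* on the X chromosome and a chain of Bowman's capsule, had signals of 93.1, 76.4 and 85.1, below the filter. Over the 5 type IV genes past the filter, the median difference was -0.11 in array 1 and -0.083 in array 2. Of these, 4 lay below uninephrectomy in both arrays, where 29.7% of all genes did, although the difference farthest from 0 was -0.21.

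All 3 type VI chains past the filter lay below uninephrectomy in both cardio-renal arrays, as did 29.7% of all genes tested. Each was lower in array 2 than in array 1, as were 53.1% of all genes. *Col6a2* had signals of 400.3, 290.3 and 207. Array 2 reached 51.8% of the uninephrectomy value and array 1 reached 72.5%. The mean log2 difference was -0.64 ± 0.31 (SD, n = 2), with a standard error of 0.26 and an unadjusted p of 0.0373 (adjusted p 0.9998) in limma's fit, and it was the 95th lowest of all genes by mean difference. Its second probe set, which may cross-hybridise by its design, had signals of 260.1, 281 and 179 and gave 0.10 in array 1 and -0.48 in array 2. *Col6a1*, next to *Col6a2* on chromosome 10 and joined with it in the same heterotrimer, had signals of 396, 375 and 296. *Col6a3*, the large chain that gives rise to endotrophin, had signals of 755, 709 and 524. Neither differed much from uninephrectomy in array 1, at -0.073 and -0.087, and both were lower in array 2, at -0.39 and -0.50. The class medians were -0.087 in array 1 and -0.50 in array 2. *Col6a4* and *Col6a5* had signals between 11 and 46, below the filter.

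**Figure D3:**
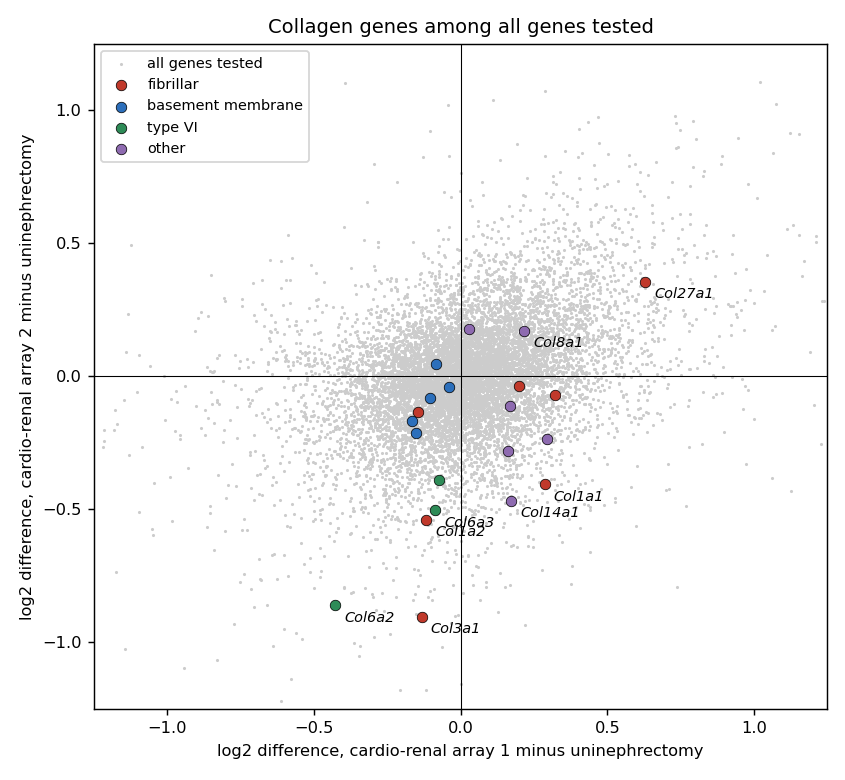
Log2 difference of cardio-renal array 1 (horizontal) and array 2 (vertical) from the uninephrectomy array for all genes tested (grey) and for the collagen genes past the filter, coloured by class. 88 genes beyond the axis limits are not drawn; *Col3a1* and *Col6a2* sit near the lower edge of the cloud, and *Col27a1* in the upper right. Both axes share the uninephrectomy array, which alone spreads points along the diagonal.

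Of the remaining classes, the fibril-associated collagens divided. *Col14a1*, which decorates type I fibres, had signals of 1152, 1302 and 825, a log2 difference of 0.17 in array 1 and -0.47 in array 2. Its second probe set had 632, 508 and 324 and lay below uninephrectomy in both, at -0.30 and -0.90. *Col12a1*, a related chain of dense connective tissue, had signals of 219, 274 and 182, with 0.29 and -0.23. A dimmer *Col12a1* probe set went the other way in array 2, with signals of 69.3, 189 and 133. *Col16a1* had 249, 254 and 285, a difference of at most 0.18. Under quantile normalization the array 1 value of *Col16a1* changed sign, to -0.042.

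*Col15a1* and *Col18a1* encode the multiplexins, which sit at the outer face of basement membranes; fragments of *Col18a1* include endostatin. *Col15a1* had signals of 159.8, 182 and 127, and *Col18a1* of 1509, 1700.05 and 1394. Both were higher than uninephrectomy in array 1 (0.16 and 0.17) and lower in array 2 (-0.28 and -0.11). *Col8a1* had signals of 351, 412 and 399, a mean difference of 0.19 ± 0.03 (SD, n = 2), with a standard error of 0.20 in limma's fit. That SD holds only the gap between the cardio-renal arrays, since both differences share the control. The other *Col8a1* probe set past the filter gave -0.34 in array 1 and 0.087 in array 2. The 6 genes outside the fibrillar, type IV and type VI classes had a median of 0.17 in array 1, against -0.17 in array 2.

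Below the filter were 21 collagen genes, with signals from 2.18 to 117. They were the fibrillar chains *Col2a1*, *Col11a1*, *Col11a2* and *Col24a1*, the type IV chain *Col4a6*, the type VI chains *Col6a4* and *Col6a5*, and *Col7a1*, *Col8a2*, *Col9a1*, *Col9a2*, *Col9a3*, *Col10a1*, *Col13a1*, *Col17a1*, *Col19a1*, *Col20a1*, *Col22a1*, *Col23a1*, *Col25a1* and *Col26a1*. Several are known from cartilage (types II, IX, X and XI) or from skin (types VII and XVII). *Col9a1* had signals of 29.6, 115 and 81.7, and was the 1 collagen gene at least 1.5-fold apart from uninephrectomy in both arrays when no filter was set. Its second probe set had 26.9, 20.6 and 3.57 and ran in the opposite direction.

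Probe sets of one gene were a check on these values that did not need more samples. Of the 21 genes, 14 had more than 1 probe set past the filter, with 15 further sets. In array 1, 9 of the 15 had the sign of the set used, and in array 2, 12 of 15 did. The same agreement over all genes is not given, so these counts have no background. Shared signs were also likelier in array 2, where 17 of the 21 genes lay below uninephrectomy. The plot of probe sets shows that the widest gaps in array 2 belonged to *Col3a1*, *Col4a1* and *Col12a1*.

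**Figure D4:**
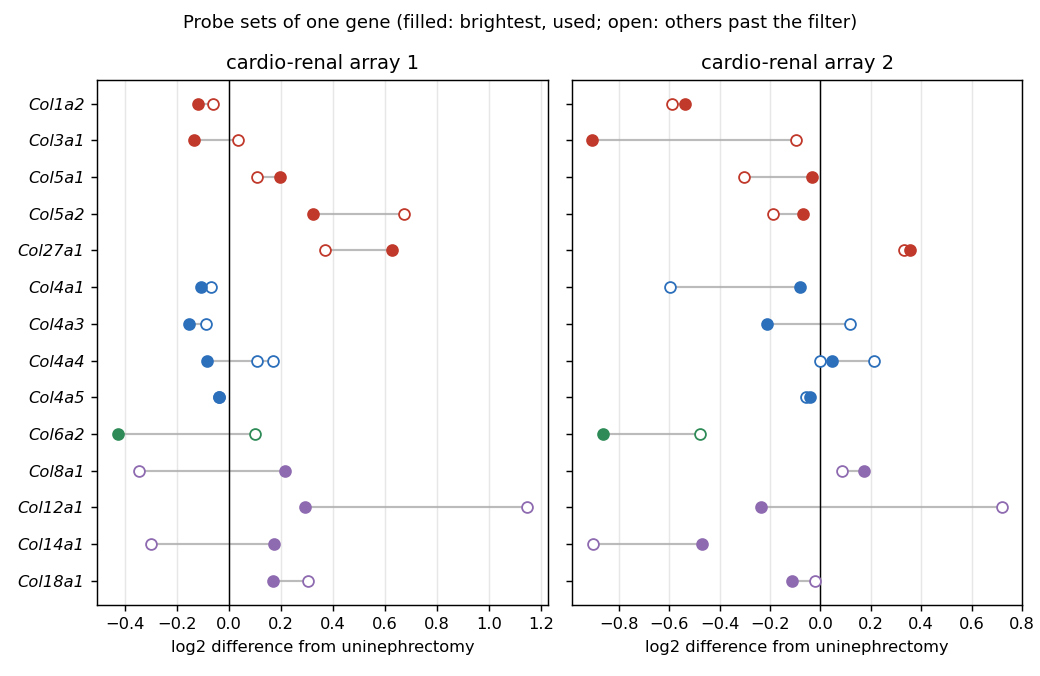
Log2 difference from the uninephrectomy array for every probe set past the filter of the 14 collagen genes with several, in cardio-renal array 1 (left) and array 2 (right). Filled points are the brightest set, which the text uses, and open points the others; for *Col1a2* and *Col27a1* they lie on the same side of 0 in both arrays.

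Some markers of the cells that make interstitial collagen were also low in array 2. Of 6 fibroblast and pericyte markers, all past the filter, *Pdgfra*, the growth factor receptor of interstitial fibroblasts, had signals of 880.2, 906 and 499. *Pdgfrb*, its counterpart on pericytes and fibroblasts, had 1504, 1403 and 919. Both were near the control in array 1 and low in array 2, at -0.79 and -0.69, while the pericyte genes *Rgs5* (0.25) and *Cspg4* (0.10) were not low there. The list's median was -0.0030 in array 1 and -0.37 in array 2, and its summed signal was 6665 with uninephrectomy, 7013 in array 1 and 5268 in array 2. Endothelial markers had medians of 0.096 and -0.064 over 5 genes, macrophage markers of -0.015 and -0.0094 over 5, and smooth muscle markers of 0.069 and -0.023 over 3. In RNA of a whole kidney, fewer cells of a type and less RNA per cell cannot be told apart. The part of fibroblast content in the collagen values was not tested. Of 6 heart muscle markers, 3 passed the filter and all 6 were higher in both cardio-renal arrays. Their summed signals were 164 with uninephrectomy, 1636 in array 1 and 1161 in array 2. With uninephrectomy alone, *Tnni3* (1.97), *Myh6* (9.93), *Nppb* (11.1) and *Tnnt2* (12.4) had signals below the offset of 28.8. *Myl2* (55.9) and *Actc1* (72.7) lay above that offset. The part of heart muscle RNA in the collagen values was not tested.

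The genes that process, bind and degrade collagen were read from lists of 62 genes, of which 58 were measured and 45 passed the filter. In both cardio-renal arrays 7 of the 45 lay above uninephrectomy and 14 below, 15.6% and 31.1%, beside 30.7% and 29.7% of all genes, and none passed limma's adjusted p. In array 2 alone, 34 of the 45 lay below uninephrectomy, beside 50.7% of all genes, with a median of -0.15. Fibril-associated proteins had medians over 9 genes of -0.055 in array 1 and -0.27 in array 2, where 8 of the 9 lay below uninephrectomy and *Fmod*, fibromodulin, stood at 0.0034. *Dcn*, the proteoglycan decorin that binds type I fibres, had signals of 2309, 2215 and 1603. Both *Dcn* and *Lum* are also among the fibroblast and pericyte markers above, so the medians of these lists are not independent. *Fn1*, fibronectin, had 946, 777 and 732, and *Postn*, periostin, had 155, 131 and 131, both lower in either array.

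Genes that modify or fold the chains in the endoplasmic reticulum had median differences over 14 genes of 0.00086 in array 1 and -0.0012 in array 2, with 5 genes above uninephrectomy in both arrays and 5 below. *Serpinh1*, the collagen chaperone HSP47, named after its values were seen, had signals of 3497, 3469.6 and 2782, at -0.011 in array 1 and -0.33 in array 2. *P4ha1*, a prolyl hydroxylase subunit, had signals of 1053, 935 and 944. *Plod2*, the lysyl hydroxylase of telopeptides, had 1063, 871 and 899. *Colgalt2*, a collagen galactosyltransferase, had 179, 244 and 207. Of the cross-linking enzymes, the 3 past the filter had medians of 0.11 and -0.26; *Loxl3*, a lysyl oxidase, was the 1 above uninephrectomy in both, at 0.17 and 0.027. In the list of genes for propeptide removal, both genes past the filter were of opposite sign in the arrays.

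Among receptors, with medians over 5 genes of 0.060 and -0.15, *Ddr2*, the fibrillar collagen receptor of mesenchymal cells, had signals of 299, 257 and 233. *Ddr1*, its epithelial relative, had 6492, 7272 and 6562, and the integrin subunit *Itgb1* had 2041, 1937 and 1948. Degradation genes had medians over 6 genes of 0.038 and -0.14. *Timp2*, an inhibitor of matrix metalloproteinases, had signals of 1270.0, 1138 and 708, at -0.15 and -0.82. *Mmp14*, a membrane-bound collagenase, had 327, 308 and 241. Among regulators, with medians over 6 genes of 0.25 and -0.079, *Tgfbr2*, the TGF-beta receptor subunit that binds ligand, had 2153, 1668 and 1699 and so lay below uninephrectomy by a similar amount in both arrays.

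**Figure D5:**
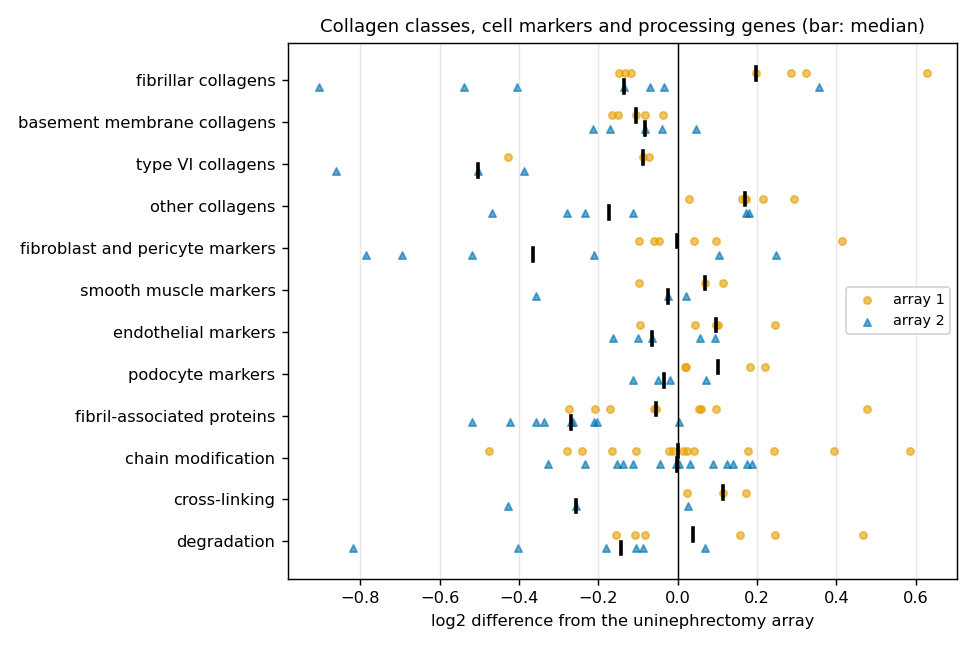
Log2 difference from the uninephrectomy array of every gene past the filter in each collagen class and in lists of cell markers and collagen-processing genes, for cardio-renal array 1 (circles) and array 2 (triangles); black bars are medians. In array 2 the medians were -0.50 for type VI collagens, -0.37 for fibroblast and pericyte markers and -0.27 for fibril-associated proteins, and -0.0012 for chain-modifying genes. *Dcn* and *Lum* belong to both the fibroblast and pericyte list and the fibril-associated list.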

How the data were processed

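The deposited values are intensities: the authors' MAS5 signal of each of 45101 probe sets on a linear scale, from biotin-labelled cRNA made from 250 ng of total RNA with a 3′ kit, per the labels' protocols. MAS5 is named in the submitters' processing notes, with no version recorded in the sources used here. Each array's mean, trimmed by 2% at each end, was 500.003, so no further scaling was applied. Mismatch subtraction by MAS5 adds noise at low signals, and no detection calls were used. The number of arrays limits the precision.

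Probe sets were named from the platform annotation (34945 with 1 symbol, 932 with several left unnamed, 9160 unnamed, 64 controls), with symbols looked up by Entrez ID in RefSeq's GRCm38.p6 table. Values became log2(signal + 28.8), an offset set at the median of the arrays' 25th percentiles, which understates the change of dim genes. Genes were kept at a mean of at least 7.02. limma 3.58.1 in R 4.3.3 (lmFit, eBayes with a trend, two-sided, Benjamini-Hochberg at 0.05) was fitted over 11144 genes on all 3 arrays and checked on simulated data. Since no label ties an array to a single animal, the p-values reflect the spread of these samples alone, which may be technical.

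Every collagen gene past the filter was named, and of each pathway list the 3 genes with the largest smaller difference of one sign; others were chosen after their values were seen. Alternatives were another offset (16), no filter, quantile normalization, other choices of probe set, other trends and each cardio-renal array left out. The members and lists were chosen with earlier results of these data known. Promoter sequences are RefSeq's, of GRCm38.p6; 33 of the 42 genes had a window. Genome coordinates of the probes were not used here.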

Additional observations from a re-analysis of the deposited data

How the results depend on the processing

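limma called 0 genes under every alternative that could be fitted (offset of 16, no filter, quantile normalization, mean of probe sets, without shared-sequence probe sets, no trend, robust trend); with a cardio-renal array left out no residual degree of freedom remains, so that test was not run. Without the filter, 12 collagen genes lay above uninephrectomy in both arrays and 16 below, 1 was at least 1.5-fold apart in both and the type IV median became -0.12; here 42 genes enter in place of 21. With the mean of probe sets, 5 of the 19 collagen genes kept lay above in both and 10 below. Shares over all genes are not given for either of these settings, so the counts have no background beside them. Leaving out one cardio-renal array, the number above ranged from 4 to 10, the number below from 11 to 17 and the number at least 1.5-fold apart from 1 to 2; the fibrillar median ranged from -0.13 to 0.20, the type IV median from -0.11 to -0.083, the type VI median from -0.50 to -0.087 and that of the other collagens from -0.17 to 0.17. The fibrillar median thus turns positive without array 2. Over the other alternatives, class medians moved by less than the spread between the arrays. The group of collagens I, III, VI and XIV was chosen after its values were seen, so its signs in array 2 are a description. These genes stayed below uninephrectomy there under the offset, filter, normalization and probe set alternatives. The count was 7 of 7 genes, or 6 of 6 without shared-sequence probe sets, and in the main setting 50.7% of all genes lay below. Without shared-sequence probe sets *Col6a2* dropped out, and *Col3a1* moved from -0.91 to -0.097 in array 2. No paired analysis was possible, because 1 uninephrectomy array stood against 2 cardio-renal arrays and the labels tie no array to another.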

Other observations

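*Smad7*, the inhibitory SMAD of TGF-beta signalling, had signals of 289 with uninephrectomy alone, 1505 in cardio-renal array 1 and 286 in array 2, and *Bmp1*, the procollagen C-proteinase, had 167, 267 and 103; both were chosen after their values were seen. The spread between the cardio-renal samples was 1.62 (SD of the log2 differences, n = 2) for *Smad7* and 0.82 for *Bmp1*.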
